A study of Mus musculus with 8 samples.

Results

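Small nucleolar RNAs and Cajal body RNAs were examined in mouse liver cells that carried wild-type or floxed alleles of Adar1. Members were every gene whose symbol begins with Snora, Snord or Scarna followed by a digit and whose sense reads, summed over the 8 libraries, reached 80. This gave 60 of 119 such symbols among 25229 genes in the tables, namely 19 of 36 H/ACA RNAs (Snora), 33 of 74 C/D RNAs (Snord) and 8 of 9 Cajal body RNAs (Scarna). The other 59 stayed under the sum, and 15 of them had no read. Just inside the limit were Snora21 with 84 reads and Snord88c and Snord49a with 85 each, and just outside were Snora52 with 76, Snord11 with 73 and Snord14c with 72. All 60 members passed the filter on low counts, which kept 14728 genes for testing.

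The RNA came from livers of C57BL/6 mice in 3 groups named by their labelled Adar1 genotype: wt/wt (3 libraries), wt/flox (2 libraries) and flox/flox (3 libraries). Mice of every group, the wt/wt group included, were Ifih1-/-, that is without the double-stranded RNA sensor MDA5, and Alb-Cre+, a Cre recombinase driven by the albumin promoter of hepatocytes. ADAR1, the product of the floxed gene, converts adenosine to inosine in double-stranded RNA. Replicate 1 of each group was 11 weeks old, replicate 2 was 9 weeks old and replicate 3 was 7 weeks old. The labels give 2 males and 1 female in wt/wt, 2 males in wt/flox, and 1 male and 2 females in flox/flox. The cells were released by collagenase perfusion, pelleted at low speed and passed over Percoll, and their total RNA was depleted of ribosomal RNA before strand-specific library preparation. Although the series' own text puts the flox/flox group at 2, its label stands on 3 samples, and all 3 were used.

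H/ACA RNAs guide the conversion of uridine to pseudouridine and C/D RNAs guide methylation of ribose, mostly on ribosomal RNA in the nucleolus, while Cajal body RNAs guide the same changes on spliceosomal RNAs. Most of them in vertebrates lie in introns of host genes, many of which encode ribosomal proteins or translation factors, and are trimmed from the excised intron by exonucleases while core proteins protect the body of the RNA. A few, such as Snord118 and Snord13, have their own promoters.

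The libraries held 75875711 to 132303735 sense reads on genes, of which members took 6847 to 15623, or 0.00902% to 0.0148%. Adar had 2770, 3549 and 5873 reads for wt/wt, 1880 and 2239 reads for wt/flox, and 4446, 4018 and 5542 reads for flox/flox, so that the count over the whole gene was not lower in the libraries labelled flox/flox (log2 fold change 0.19, SE 0.27, edgeR adjusted p = 0.626). A count over the whole gene includes exons outside a floxed stretch, which the labels do not name, so it does not check the deletion. Ifih1 had 0 to 4 reads per library. In 2 libraries the transcripts went against the labelled sex: flox/flox replicate 1, labelled female, had 31 Xist reads and 21255 reads of Y-linked genes, and flox/flox replicate 2, labelled male, had 246646 Xist reads and 0 of Y-linked genes. The deposited tables of the wt/flox and flox/flox samples carry the mark batch2 and those of wt/wt carry none, so in any comparison with wt/wt the genotype and this mark cannot be told apart. The summed level of 9 hepatocyte markers was 99440 to 115900 CPM (read counts scaled by library size and TMM factor) for wt/wt, 169500 and 149900 CPM for wt/flox, and 159700 to 237000 CPM for flox/flox, so that every floxed library was above every wt/wt library. Summed levels of 10 sinusoidal endothelial markers were 181 to 290 CPM in wt/wt, 91.6 and 105 CPM in wt/flox and 80.9 to 168 CPM in flox/flox, and those of 10 Kupffer and macrophage markers were 60.5 to 260 CPM, 33.8 and 34.98 CPM, and 34.0 to 119 CPM. No marker was at 0 reads over the 8 libraries, and the part of these cells in the results was not tested. In bulk samples, fewer cells of a type and less RNA per cell cannot be told apart.

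The sequences below belong to members that rose or fell in the comparison of flox/flox with wt/wt, and are shown because the results turn on them. They are the GENCODE M21 transcripts on GRCm38, written 5′ to 3′ with T for U. Capitals mark the elements that define each class, each searched on the strand of the RNA. They are a C box (ATGATGA or GTGATGA starting within the first 20 bases), a D box or an ACA within the last 8 bases. A D box here is a CTGA that reaches into the last 15 bases, so it can begin before them. Scarna13 (chr12:105031075-105031349, minus strand) lies in an intron of Snhg10, a noncoding RNA gene, and Scarna6 (chr1:87784556-87784820, plus strand) in an intron of Atg16l1, an autophagy gene. Scarna3b (chr12:80391613-80391751, minus strand) lies in an intron of Dcaf5. The first pair fell and Scarna3b rose.
Scarna13: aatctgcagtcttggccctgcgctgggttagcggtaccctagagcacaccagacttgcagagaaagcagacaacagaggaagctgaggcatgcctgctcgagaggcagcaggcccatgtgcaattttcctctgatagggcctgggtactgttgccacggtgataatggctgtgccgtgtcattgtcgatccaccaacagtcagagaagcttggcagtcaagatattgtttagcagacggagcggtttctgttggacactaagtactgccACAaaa
Scarna6: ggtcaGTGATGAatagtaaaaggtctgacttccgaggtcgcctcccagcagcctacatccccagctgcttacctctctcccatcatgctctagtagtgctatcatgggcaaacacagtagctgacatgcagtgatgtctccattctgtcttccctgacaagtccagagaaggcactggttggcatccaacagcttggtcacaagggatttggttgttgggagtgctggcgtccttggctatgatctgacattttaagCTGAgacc
Scarna3b: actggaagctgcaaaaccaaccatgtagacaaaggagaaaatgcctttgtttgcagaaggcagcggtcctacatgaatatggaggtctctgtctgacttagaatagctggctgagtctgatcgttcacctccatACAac

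Among H/ACA RNAs, Snora30 (chr7:127527874-127528003, plus strand) lies in an intron of Srcap, a chromatin remodeller, and Snora28 (chr12:111540941-111541067, plus strand) within Eif5, a translation initiation factor, where it overlaps an exon of some transcripts. Both end in an ACA followed by 3 further bases or fewer.
Snora30: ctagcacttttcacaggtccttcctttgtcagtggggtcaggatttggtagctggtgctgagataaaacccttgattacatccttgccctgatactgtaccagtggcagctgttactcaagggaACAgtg
Snora28: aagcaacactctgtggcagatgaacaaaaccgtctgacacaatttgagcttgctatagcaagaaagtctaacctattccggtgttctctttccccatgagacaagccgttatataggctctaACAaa

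Among C/D RNAs, Snord8 (chr14:52209785-52209894, minus strand) lies in an intron of Chd8, a chromatin remodeller. Snord92 (chr17:71631281-71631365, plus strand) and Snord53 (chr17:71640879-71640956, plus strand) lie in introns of 1 gene, Wdr43, a factor of ribosomal RNA processing, and therefore share a host. Snord71 (chr8:109839295-109839379, plus strand) lies in an intron of Ap1g1, a subunit of a clathrin adaptor, and Snord98 (chr10:62765576-62765640, minus strand) in an intron of Ccar1. In these 5 sequences the C box stands near the 5′ end of Snord8, Snord92 and Snord53, and the D box near the 3′ end of every sequence except Snord53.
Snord8: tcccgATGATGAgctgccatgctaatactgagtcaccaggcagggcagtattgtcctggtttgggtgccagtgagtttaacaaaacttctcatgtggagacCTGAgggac
Snord92: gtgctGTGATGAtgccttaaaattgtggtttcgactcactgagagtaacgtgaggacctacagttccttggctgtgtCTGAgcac
Snord53: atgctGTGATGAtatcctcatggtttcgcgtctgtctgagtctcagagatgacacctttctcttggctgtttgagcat
Snord71: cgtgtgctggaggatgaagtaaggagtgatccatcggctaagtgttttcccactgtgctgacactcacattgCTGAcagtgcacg
Snord98: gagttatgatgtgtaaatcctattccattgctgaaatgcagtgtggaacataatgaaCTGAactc

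The same search over all members found the D box in 32 of 33 C/D RNAs, the C box in 19 of 33 and an ACA in 18 of 19 H/ACA RNAs. Among 8683 other GENCODE transcripts of 65 to 300 bases, the C box was present in 0.714%, the D box in 8.53% and the ACA in 10.5%. Of the 9 C/D RNAs that rose in flox/flox against wt/wt, 4 held the C box and 8 the D box, and of the 24 that did not pass the test, 15 held the C box and 24 the D box. A match is only a run of letters in this window.

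Of the 60 members, 52 lay inside a host gene on the same strand, 29 within an intron of every host transcript and 23 over an exon of some transcript. No host was found for the other 8, namely Scarna2, Scarna17, Snora17, Snora43, Snord13, Snord49a, Snord104 and Snord118. In an intron, a read on the small RNA and a read on unspliced host RNA cannot be told apart from these counts. For 19 members the RefSeq span was under 80% of the GENCODE span (Scarna2, 61 against 414 bases), and the annotation used for counting is not given in the sources used here, so lengths are uncertain.

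Levels were very unequal. Scarna2 and Scarna10 together held 71% of all member reads, and the 8 Cajal body RNAs 79.8%. Per kilobase of annotated length, the highest mean levels over the 8 libraries were 152 CPM for Scarna2, 50.2 CPM for Scarna10, 27.1 CPM for Snora28, 17.3 CPM for Snord104 and 17.0 CPM for Scarna6. Next came Scarna9 with 12.8 CPM per kilobase, Scarna13 with 12.3 and Snord96a with 11.99, followed by Snord17 with 9.62, Snord71 with 8.41, Scarna17 with 8.14 and Snord85 with 8.05. The lowest was Snora21 with 0.779 CPM per kilobase. Mean CPM was 1 or more in 8 members and under 1 in 52, which limits the precision for most of the family.

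In flox/flox against wt/wt, 14 H/ACA and C/D RNAs rose, while both of the RNAs that fell were Cajal body RNAs. Of the 60 members, 15 rose and 2 fell (edgeR quasi-likelihood test, Benjamini-Hochberg adjusted p under 0.05 over all genes), beside 15.1% of all 14728 genes that rose and 14.7% that fell. The read sum that chose the members ran over 5 floxed and 3 wt/wt libraries, and 12 members would have stayed under 80 reads at their mean wt/wt level. Of these, 6 are among those that rose (Snord92, Snord98, Snord91a, Snord111, Snora75 and Scarna3b) and 0 among those that fell. They are members only through the groups where they are high, so the counts and medians here are a description and are not read against the background. The median log2 fold change was 0.81 over members and 0.02 over all genes, and 49 members had a positive and 11 a negative value. Without overlap of the groups' libraries, 29 members were higher and 5 lower, where 23% and 22% of all genes were. Per class, 5 of 19 H/ACA RNAs rose and none of them fell (median 0.82), 9 of 33 C/D RNAs rose and none of them fell (median 0.98), and 1 of 8 Cajal body RNAs rose and 2 fell (median -0.10).

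Libraries decided part of these counts. Without both libraries that went against their labelled sex, only replicate 3 was left in flox/flox, and the member median was 0.57. Calls lost in that fit are not read as an effect of sex, which it cannot tell apart from the smaller group. With sex by transcripts as a term, 16 members rose and 2 fell with a median of 0.85, and the 17 main calls were kept. Without wt/wt replicate 2, 8 rose and 1 fell, and without flox/flox replicate 2, 11 rose and 1 fell. With library size alone and no TMM factor, the median of all genes moved to -0.31, and 10 members rose and 6 fell with a member median of 0.48. The share of sense reads outside annotated genes ran from 22.2% to 28.1% for wt/wt, was 31.7% and 37.3% for wt/flox, and ran from 34.5% to 40.01% for flox/flox. Multiply aligned reads made up 8.97% to 10.9% of the sense reads of wt/wt libraries (themselves included in the total), against 3.92% to 4.98% for wt/flox and flox/flox. Neither share overlapped between wt/wt and the floxed groups, and their part in the result was not tested.

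**Figure D1:**
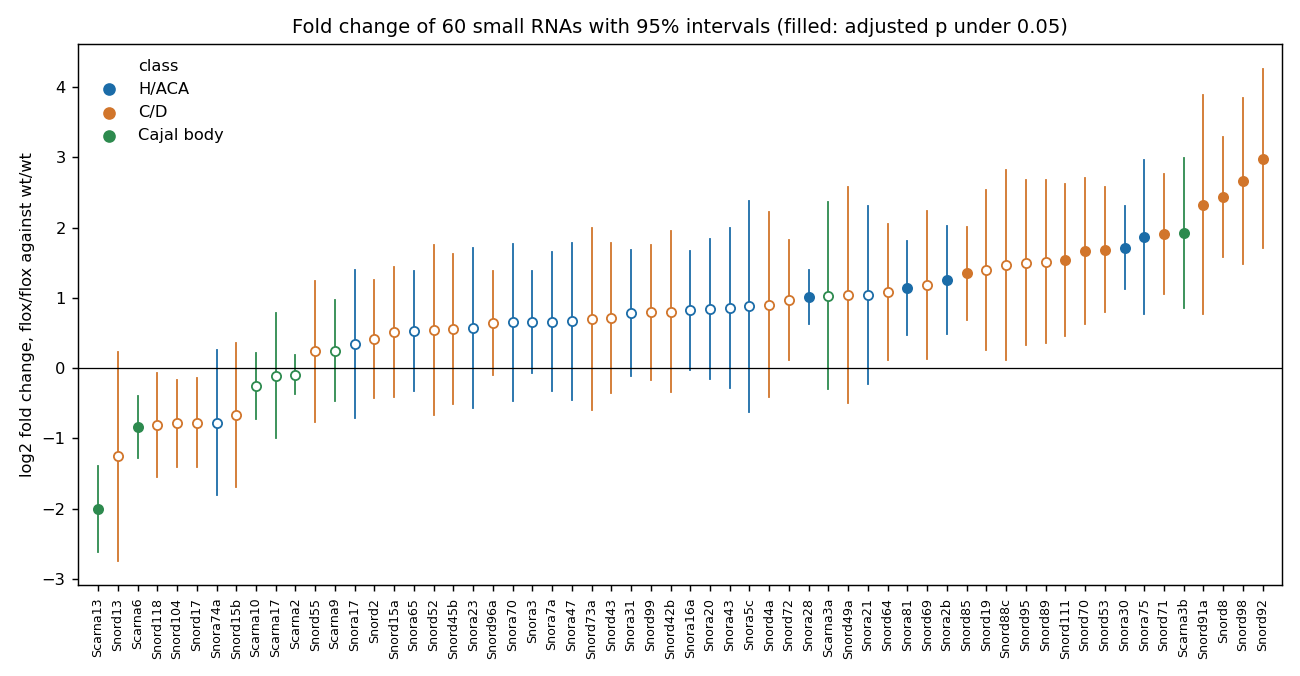
Log2 fold change of each of the 60 members in flox/flox against wt/wt (vertical axis), ordered from lowest to highest, with 95% intervals as lines and colours for the classes. Filled points passed an adjusted p of 0.05: 15 above 0 and 2, Scarna13 and Scarna6, below it.

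Summed levels also differed by class, although a sum follows its most abundant members. The H/ACA sum was 7.23, 6.05 and 6.25 CPM in wt/wt, 11.8 and 11.3 CPM in wt/flox and 13.7, 12.3 and 11.8 CPM in flox/flox, with no overlap between wt/wt (6.51 ± 0.627, SD, n = 3) and flox/flox (12.6 ± 1.00, SD, n = 3). The C/D sum was 10.5, 10.6 and 12.4 CPM in wt/wt, 13.4 and 13.3 CPM in wt/flox and 17.0, 13.4 and 13.3 CPM in flox/flox, so each floxed library was above each wt/wt library. The Cajal body sum was 94.1, 96.9 and 109 CPM in wt/wt, 81.1 and 72.6 CPM in wt/flox and 83.1, 81.0 and 93.5 CPM in flox/flox, below wt/wt in every library. Of its wt/wt mean of 100.1 CPM, Scarna2 held 67.9 and Scarna10 17.9, and neither of these passed the test. For all 60 members together the sums were 112, 114 and 128 CPM, 106 and 97.2 CPM, and 114, 107 and 119 CPM, and these overlapped between wt/wt and flox/flox.

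Cajal body RNAs are described first because they held most reads. Scarna2, which guides ribose methylation of a spliceosomal RNA, stood at 61.3, 63.7 and 78.7 CPM in wt/wt, 57.1 and 51.2 CPM in wt/flox and 64.5, 61.5 and 65.0 CPM in flox/flox. Its flox/flox libraries lay within the range of wt/wt, and the difference was the smallest of the members with at least 10 CPM (log2 fold change -0.09, 95% interval -0.37 to 0.19, adjusted p = 0.592). Scarna10, a composite guide with both C/D and H/ACA parts, had 19.2, 18.6 and 16.0 CPM, then 16.3 and 15.3 CPM, then 11.8, 13.1 and 20.3 CPM in the same order. Its flox/flox libraries were spread on either side of the wt/wt range (log2 fold change -0.25, 95% interval -0.73 to 0.22, adjusted p = 0.379).

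Scarna13, a tandem H/ACA guide, was lower in every floxed library. Its level was 6.72, 5.48 and 7.05 CPM in wt/wt, 1.84 and 1.19 CPM in wt/flox and 1.73, 1.14 and 1.92 CPM in flox/flox, with no overlap between wt/wt and the rest. It fell 4.01-fold in flox/flox (log2 fold change -2.00, SE 0.26, adjusted p = 0.00249). These values rest on 662, 648 and 772 reads for wt/wt and on 156, 128 and 253 reads for flox/flox. Scarna6, a composite guide whose C and D boxes are marked above, had 5.40, 7.85 and 5.52 CPM in wt/wt, 3.58 and 3.195 CPM in wt/flox and 3.42, 3.17 and 3.96 CPM in flox/flox. All of its floxed libraries were below the lowest wt/wt library, and it fell 1.78-fold (log2 fold change -0.83, SE 0.19, adjusted p = 0.0153). That call was lost when replicate 2 of wt/wt, replicate 2 of flox/flox, or both libraries with contradicted sex labels were left out, with adjusted p up to 0.148.

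Scarna3b went the other way at a low level. It had 0.0507, 0.0423 and 0.0365 CPM in wt/wt (4 or 5 reads per library), 0.246 and 0.170 CPM in wt/flox and 0.222, 0.152 and 0.129 CPM in flox/flox (17 to 20 reads). The groups did not overlap, and it rose 3.79-fold (log2 fold change 1.92, SE 0.46, adjusted p = 0.0180). Leaving out wt/wt replicate 2, or the libraries with contradicted sex labels, ended this call (adjusted p up to 0.147). The related Scarna3a, in an intron of Cop1, had 0.213, 0.0423 and 0.128 CPM in wt/wt and 0.189, 0.340 and 0.250 CPM in flox/flox, which overlapped (log2 fold change 1.03, adjusted p = 0.209). Scarna9 stood at 0.853, 0.558 and 1.08 CPM in wt/wt and 0.866, 0.992 and 1.10 CPM in flox/flox, and Scarna17 at 0.426, 0.609 and 0.849 CPM against 0.422, 0.554 and 0.766 CPM. Neither passed the test (log2 fold changes 0.25 and -0.11, adjusted p = 0.567 and 0.848), and their groups overlapped.

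**Figure D2:**
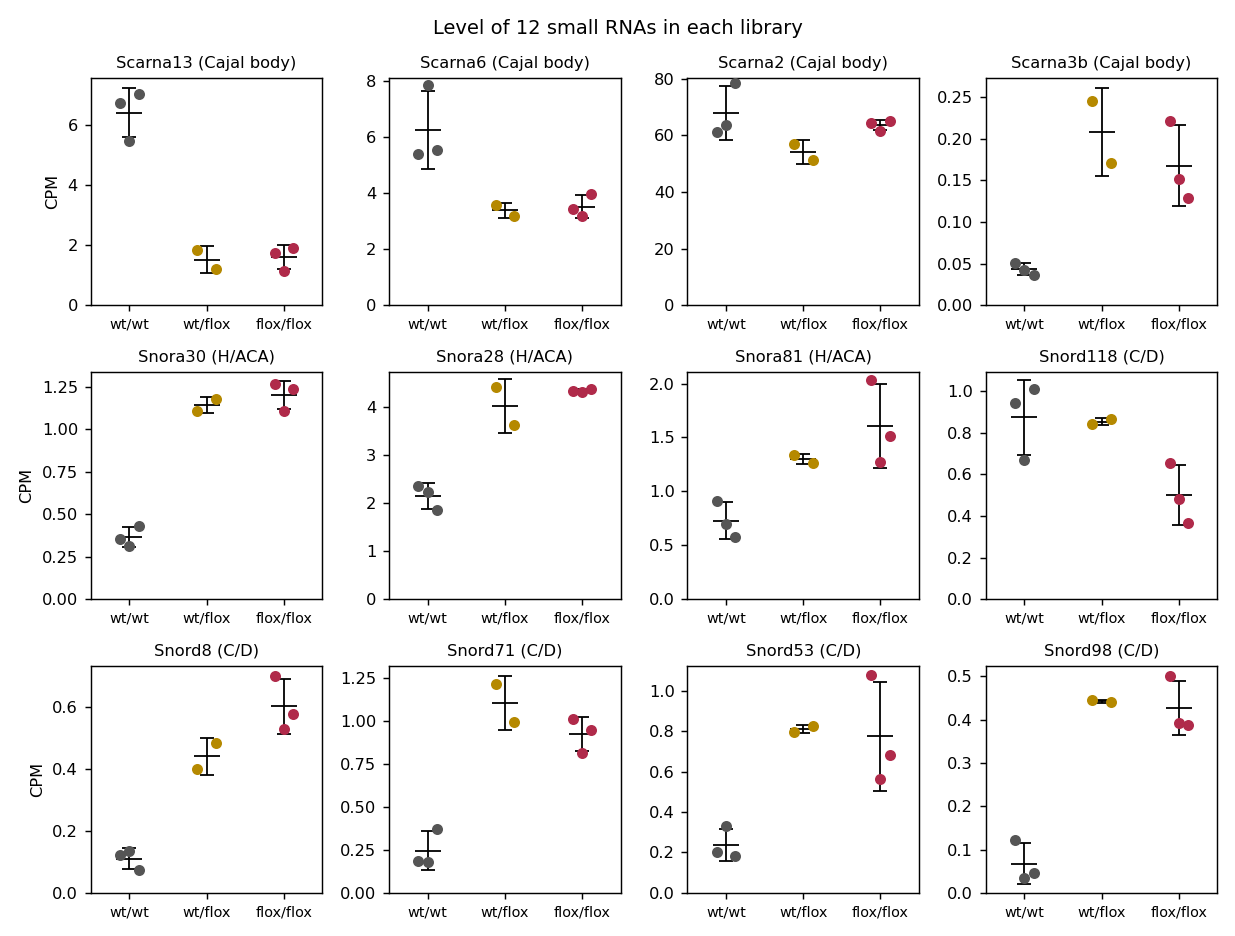
Level in CPM (vertical axis, from 0) of 12 members in each library of the 3 genotype groups, with the mean and SD as a horizontal line and bars. Scarna13 and Scarna6 are lower in all floxed libraries, Scarna2 overlaps, and Snora30, Snord8, Snord71, Snord53 and Snord98 are higher in all floxed libraries.

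H/ACA RNAs were led by Snora28, in the Eif5 gene. Its level was 2.37, 2.23 and 1.85 CPM in wt/wt, 4.43 and 3.64 CPM in wt/flox and 4.34, 4.33 and 4.39 CPM in flox/flox. Every floxed library lay above every wt/wt library, and it rose 2.02-fold in flox/flox (log2 fold change 1.02, SE 0.17, adjusted p = 0.00469). Snora30, in the Srcap gene, had 0.355, 0.313 and 0.429 CPM in wt/wt, 1.11 and 1.18 CPM in wt/flox and 1.27, 1.11 and 1.24 CPM in flox/flox. Again wt/wt stood apart, and Snora30 rose 3.28-fold (log2 fold change 1.72, SE 0.26, adjusted p = 0.00352).

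3 more H/ACA RNAs rose. Snora81, in the gene of the RNA helicase Eif4a2, had 0.913, 0.693 and 0.575 CPM in wt/wt, 1.33 and 1.26 CPM in wt/flox and 2.03, 1.27 and 1.52 CPM in flox/flox (log2 fold change 1.14, SE 0.29, adjusted p = 0.0213). Its neighbour in the same host, the C/D RNA Snord2, had 0.152, 0.127 and 0.164 CPM in wt/wt and 0.233, 0.188 and 0.175 CPM in flox/flox and did not pass (log2 fold change 0.42, adjusted p = 0.413). Snora75, in the gene of nucleolin (Ncl), had 0.0812, 0.0423 and 0.0913 CPM in wt/wt, 0.129 and 0.156 CPM in wt/flox and 0.178, 0.259 and 0.349 CPM in flox/flox (log2 fold change 1.87, SE 0.48, adjusted p = 0.0222). All 3 flox/flox libraries exceeded wt/wt for both of the RNAs that rose. Snora2b, in Kansl2, had 0.294, 0.220 and 0.365 CPM in wt/wt, 0.374 and 0.469 CPM in wt/flox and 0.600, 0.849 and 0.660 CPM in flox/flox (log2 fold change 1.26, SE 0.33, adjusted p = 0.0253), also without overlap. The calls of Snora81, Snora75 and Snora2b were each lost when replicate 2 of wt/wt or the libraries with contradicted sex labels were left out, and over all alternatives their adjusted p reached 0.0986, 0.0802 and 0.139.

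The other 14 H/ACA RNAs did not pass, and 13 of them had positive values. Snora3, in the ribosomal protein gene Rpl27a, had 0.599, 0.423 and 0.429 CPM in wt/wt and 0.933, 0.769 and 0.592 CPM in flox/flox (log2 fold change 0.66, adjusted p = 0.148). Snora31, in Tpt1, had 0.376, 0.228 and 0.374 CPM in wt/wt and 0.777, 0.545 and 0.372 CPM in flox/flox (log2 fold change 0.79, adjusted p = 0.161). In both, 1 flox/flox library fell inside the range of wt/wt. Snora74a, in Gm28285, was the only H/ACA RNA with a negative value, with 0.294, 0.161 and 0.246 CPM against 0.0999, 0.170 and 0.137 CPM (log2 fold change -0.77, adjusted p = 0.227).

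Of the 33 C/D RNAs, 9 rose, and 4 of these (Snord92, Snord98, Snord91a and Snord111) would not have reached the read sum at their wt/wt level. Snord8, in Chd8, had 0.122, 0.135 and 0.0730 CPM in wt/wt, 0.398 and 0.483 CPM in wt/flox and 0.699, 0.527 and 0.577 CPM in flox/flox. Each floxed library was above each wt/wt library, and Snord8 rose 5.41-fold in flox/flox (log2 fold change 2.43, SE 0.37, adjusted p = 0.00366). Snord71, in Ap1g1, had 0.183, 0.178 and 0.374 CPM in wt/wt, 1.22 and 0.994 CPM in wt/flox and 1.01, 0.813 and 0.948 CPM in flox/flox, and rose 3.76-fold (log2 fold change 1.91, SE 0.37, adjusted p = 0.00827). Snord85 had 0.315, 0.321 and 0.283 CPM in wt/wt, 0.608 and 0.824 CPM in wt/flox and 0.799, 0.867 and 0.683 CPM in flox/flox, and rose 2.55-fold (log2 fold change 1.35, SE 0.28, adjusted p = 0.0114). For these RNAs wt/wt and the floxed groups did not overlap.

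Snord98, in Ccar1, is the shortest member with 65 annotated bases. It had 0.122, 0.0338 and 0.0456 CPM in wt/wt (12, 4 and 5 reads), 0.445 and 0.440 CPM in wt/flox and 0.500, 0.393 and 0.387 CPM in flox/flox (45, 44 and 51 reads), and rose 6.35-fold (log2 fold change 2.67, SE 0.51, adjusted p = 0.00812). The pair within Wdr43 moved in the same direction from different levels. Snord92 had 0.0305, 0.0169 and 0.0365 CPM in wt/wt (2 to 4 reads), 0.117 and 0.170 CPM in wt/flox and 0.344, 0.170 and 0.175 CPM in flox/flox (log2 fold change 2.98, SE 0.55, 95% interval 1.70 to 4.26, adjusted p = 0.00701). Snord53 had 0.203, 0.330 and 0.183 CPM in wt/wt, 0.796 and 0.824 CPM in wt/flox and 1.08, 0.563 and 0.683 CPM in flox/flox (log2 fold change 1.69, SE 0.38, adjusted p = 0.0149). Both were above every wt/wt library in every floxed library, and flox/flox replicate 1 was the highest for each. The call of Snord53 was lost when replicate 1 of wt/wt or the libraries with contradicted sex labels were left out (adjusted p up to 0.0743).

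3 further C/D RNAs rose with weaker support. Snord70, in the gene of the core protein Nop58, had 0.132, 0.110 and 0.256 CPM in wt/wt and 0.611, 0.411 and 0.569 CPM in flox/flox (log2 fold change 1.67, SE 0.45, adjusted p = 0.0271). Snord91a, in Tsr1, had 0.0609, 0.00846 and 0.0913 CPM against 0.211, 0.304 and 0.296 CPM (log2 fold change 2.33, SE 0.67, adjusted p = 0.0350), and its wt/wt libraries held 6, 1 and 10 reads. Snord111, in the splicing factor gene Sf3b3, had 0.102, 0.0761 and 0.0730 CPM against 0.344, 0.259 and 0.137 CPM (log2 fold change 1.54, SE 0.47, adjusted p = 0.0402). None of the 3 overlapped between groups, but Snord111 was lost in 13 and Snord91a in 11 of 20 alternatives, and Snord70 in 6, among them leaving out wt/wt replicate 1, wt/wt replicate 2, or the libraries of contradicted sex.

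5 C/D RNAs had negative values, and none of them passed. Snord118, which is needed for processing of large-subunit ribosomal RNA and has its own promoter, stood at 0.944, 0.668 and 1.01 CPM in wt/wt, 0.842 and 0.866 CPM in wt/flox and 0.655, 0.483 and 0.364 CPM in flox/flox (log2 fold change -0.81, SE 0.32, adjusted p = 0.0954). Its flox/flox libraries were all below the others, although replicate 1 of flox/flox was near replicate 2 of wt/wt. Snord13, which guides acetylation of small-subunit ribosomal RNA, ranged widely in wt/wt with 0.193, 0.271 and 0.685 CPM, beside 0.222 and 0.213 CPM in wt/flox and 0.278, 0.0715 and 0.137 CPM in flox/flox (log2 fold change -1.25, SE 0.64, adjusted p = 0.176). Its groups overlapped.

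Snord17, in Snx5, had 2.15, 3.54 and 3.83 CPM in wt/wt, 1.44 and 1.78 CPM in wt/flox and 2.09, 1.47 and 2.01 CPM in flox/flox (log2 fold change -0.77, SE 0.27, adjusted p = 0.0670). Snord104, with no host found here, had 1.31, 2.06 and 1.66 CPM in wt/wt, 0.983 and 0.767 CPM in wt/flox and 0.977, 1.12 and 0.835 CPM in flox/flox (log2 fold change -0.78, SE 0.27, adjusted p = 0.0613). Every floxed library was below the lowest wt/wt library for both, without passing the threshold. The last, Snord15b in Rps3, had a log2 fold change of -0.66 (adjusted p = 0.288), while Snord15a in the same host had 0.52 (adjusted p = 0.356).

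Among the remaining C/D RNAs, Snord96a in Rack1 was the most abundant per length after Snord104. It had 1.02, 0.474 and 0.794 CPM in wt/wt, 0.983 and 0.952 CPM in wt/flox and 1.31, 1.21 and 1.04 CPM in flox/flox (log2 fold change 0.64, adjusted p = 0.167). Snord95, in the same host, had 0.162, 0.135 and 0.237 CPM in wt/wt and 0.866, 0.331 and 0.334 CPM in flox/flox (log2 fold change 1.504, adjusted p = 0.0581). For both, every flox/flox library was above wt/wt, without passing the threshold. Several C/D RNAs known in other contexts had too few reads to enter: over all 8 libraries Snord14a had 26, Snord14d 0, Snord32a 2, Snord33 0, Snord34 2 and Snord35a 3. At this depth no difference could be detected for them.

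In wt/flox against wt/wt the sample groups differ by 1 floxed allele and by the table mark, and the wt/wt libraries are the same as above. Here 9 members rose and 2 fell, beside 6.58% of all genes that rose and 5.89% that fell, with a member median of 0.57 and a median of -0.06 over all genes. Of the 9, 3 (Scarna3b, Snord92 and Snord98) would have missed the read sum at their wt/wt level. Per class, 2 H/ACA RNAs rose (median 0.60), 6 C/D RNAs rose (median 0.73), and 1 Cajal body RNA rose while 2 fell (median -0.06). Without overlap, 27 members were higher and 5 lower, where 25.8% and 29.3% of all genes were. The Cajal body calls were Scarna13 (log2 fold change -2.08, SE 0.31, adjusted p = 0.0123), Scarna6 (-0.89, SE 0.22, adjusted p = 0.0383) and Scarna3b (2.25, SE 0.50, adjusted p = 0.0297). H/ACA calls were Snora30 with 1.64 (SE 0.28, adjusted p = 0.0162) and Snora28 with 0.91 (SE 0.18, adjusted p = 0.0225). C/D calls were Snord71 with 2.17 (adjusted p = 0.0186), Snord8 with 1.99 (adjusted p = 0.0223), Snord98 with 2.72 (adjusted p = 0.0229), Snord53 with 1.76 (adjusted p = 0.0351), Snord85 with 1.22 (adjusted p = 0.0425) and Snord92 with 2.32 (adjusted p = 0.0462).

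With 2 wt/flox libraries these counts were fragile. Leaving out wt/flox replicate 1, wt/flox replicate 2 or wt/wt replicate 2 left 0 members that rose and 0 that fell, without wt/wt replicate 1 there was 1 of each, without wt/wt replicate 3 there were 3 and 1, and without flox/flox replicate 2 there were 6 and 1. With library size alone the all-gene median moved to -0.42, and 6 members rose and 5 fell.

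Flox/flox against wt/flox is the comparison within 1 table mark, and no member passed in it. By edgeR, DESeq2 and limma-voom, 0 of 60 members rose and 0 fell, and 0 had an unadjusted edgeR p under 0.05, where 1240 genes, or 8.42%, did. By edgeR and limma-voom 0% of all genes passed after adjustment, and DESeq2 called 47 genes up and 28 down. The median log2 fold change was 0.14 over members and 0.04 over all genes, with 11 members higher and 1 lower without overlap, where 14.2% and 13.1% of genes were. The smallest p belonged to Snord118, whose flox/flox libraries were below both wt/flox libraries (log2 fold change -0.77, SE 0.36, 95% interval -1.599 to 0.05, adjusted p = 0.558).

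The RNAs that led the comparisons with wt/wt had differences of unequal size here, with intervals that give their precision. Scarna13 differed by 0.08 (95% interval -0.59 to 0.74), Scarna6 by 0.05 (-0.44 to 0.55), Snora30 by 0.07 (-0.57 to 0.71) and Snora28 by 0.11 (-0.32 to 0.53). Snord98 differed by -0.05 (-1.24 to 1.13) and Snord8 by 0.45 (-0.45 to 1.35). Snord92, with the largest value in flox/flox against wt/wt, differed by 0.67 (-0.61 to 1.94), and Snord91a by 0.85 (-0.82 to 2.51). Among H/ACA RNAs the smallest p values were those of Snora2b (0.74, 95% interval -0.13 to 1.605, adjusted p = 0.559) and Snora75 (0.88, -0.33 to 2.10, adjusted p = 0.583), and after Snord118 among C/D RNAs that of Snord69, in Gnl3 (0.90, -0.31 to 2.11, adjusted p = 0.577). Scarna2 differed by 0.24 (-0.08 to 0.55, adjusted p = 0.577) and Scarna17 by -0.39 (-1.38 to 0.60, adjusted p = 0.729). Intervals of this width leave room for changes of a size that this design could not detect in low-count members.

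**Figure D3:**
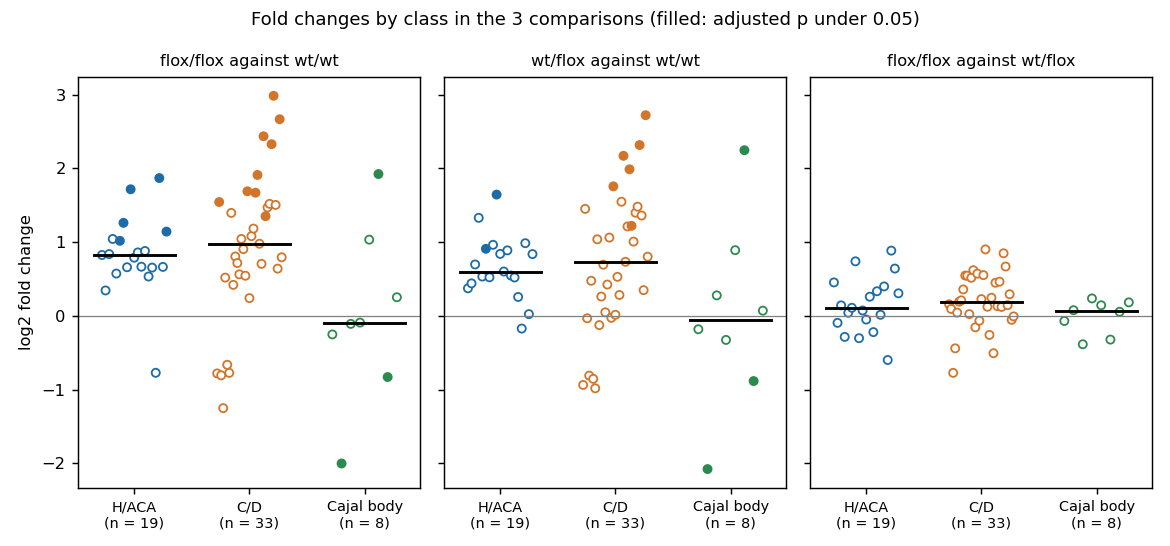
Log2 fold change (vertical axis) of the members by class in the 3 comparisons, with a black line at each median and filled points for an adjusted p under 0.05. Medians of H/ACA and C/D RNAs are 0.82 and 0.98 in flox/flox against wt/wt, 0.60 and 0.73 in wt/flox against wt/wt and 0.11 and 0.19 in flox/flox against wt/flox, where no point is filled.

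The members were also described by annotated length and by host gene, in groupings set after their values were seen. The 5 members of 200 bases or more (Scarna2, Scarna10, Scarna13, Scarna6 and Snord17) all had negative values in flox/flox against wt/wt, with 0 that rose, 2 that fell and a median of -0.77. The 28 members from 100 bases to under 200 had 7 that rose and 0 that fell (median 0.81), and the 27 members under 100 bases had 8 and 0 (median 1.04). The grouping depends on the annotation, since RefSeq gives 61 bases for Scarna2 and 71 for Scarna10, which would place both under 100 bases. Across members, Spearman's rho between length and log2 fold change was -0.29 (n = 60), a description over RNAs measured in the same libraries. Of those under 100 bases that rose, Snord92, Snord98, Snord91a and Snord111 would have missed the read sum at their wt/wt level. None of the 5 members of 200 bases or more would have missed it. The length groups and rho are therefore not read as an effect of length. The length groups differ in level too: the 8 members of mean CPM 1 or more had 2 that rose and 2 that fell (median -0.51), and the other 52 had 13 and 0 (median 0.85). The 3476 non-member genes of mean CPM under 1 had a median of 0.01, with 203 that rose and 96 that fell. The 52 include the 12 members that would have missed the read sum at their wt/wt level, of which 6 rose. The non-member genes were not chosen by that sum, so the 2 sets are not read against each other.

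**Figure D4:**
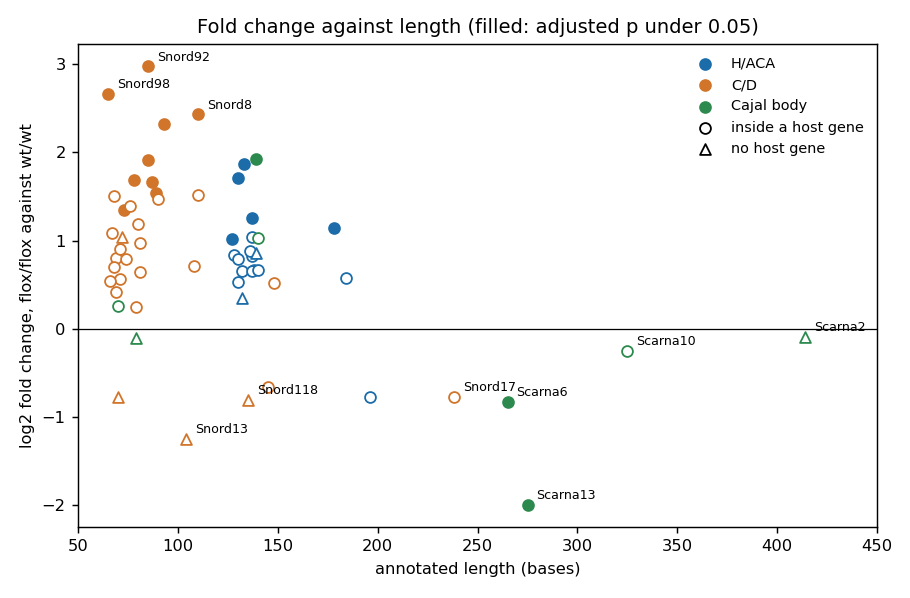
Log2 fold change in flox/flox against wt/wt (vertical axis) against annotated length in bases (horizontal axis) for the 60 members, with circles for members inside a host gene, triangles for those without, and filled points for an adjusted p under 0.05. All 5 members of 200 bases or more lie below 0; lengths are those of GENCODE, and RefSeq gives under 100 bases for Scarna2 and Scarna10.

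All the calls were of members for which a host gene was found. Of 52 in a host, 15 rose and 2 fell (median 0.86), and of 8 with no host found 0 rose and 0 fell (median -0.10). The 15 include the 6 that would have missed the read sum at their wt/wt level. The group of 8 is small and depends on the annotation and on the rule that defines a host. These counts are therefore a description and are not read as an effect of having a host. The 29 within introns of every transcript had 10 that rose and 2 that fell (median 0.98), and the 23 over an exon of some transcript had 5 and 0 (median 0.80). The 13 members in ribosomal protein genes had 0 that rose and 0 that fell (median 0.66), and the 39 in other hosts had 15 and 2 (median 1.08). The difference between these groupings was not tested.

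Other short genes were set beside the members. They are genes that the symbol rule or the read sum left out, so they can include small nucleolar RNAs. Among 240 non-member genes with at most 500 exon bases, 63 rose and 18 fell in flox/flox against wt/wt, with a median of 1.05. Of all genes, 15.1% rose and 14.7% fell. Of the 240, 167 lay inside another gene on the same strand, with 59 that rose and 1 that fell (median 1.32), and 73 did not, with 4 and 17 (median -0.20). The 166 with microRNA symbols had 54 that rose and 4 that fell (median 1.30). The higher values were thus also found among short non-member genes that lie inside longer genes, and among those with microRNA symbols.

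Host genes were more often lower than higher in flox/flox against wt/wt, where 15.1% of all genes rose and 14.7% fell. Of 42 hosts tested, 4 rose and 14 fell (median -0.25), and of the 11 ribosomal protein hosts 0 rose and 10 fell (median -1.31), whereas the other 31 had 4 and 4 (median -0.03). Rpl23, host of Snora21, went from 89.1 ± 1.63 CPM in wt/wt to 27.6 ± 2.64 CPM in flox/flox (SD, n = 3 each; log2 fold change -1.69, adjusted p = 0.000599), while Snora21 had a value of 1.04 (adjusted p = 0.185). Rpl32, host of Snora7a, went from 94.5 ± 11.3 CPM to 28.3 ± 2.87 CPM (log2 fold change -1.74, adjusted p = 0.000918), while Snora7a had 0.66 (adjusted p = 0.273). These pairs hold the hosts of smallest adjusted p, and in both the host fell and the small RNA had a positive value that did not pass. Of the 13 members in ribosomal protein genes, 12 had positive values and 1, Snord15b in Rps3, a negative value. Snora21 and Snord4a, both with positive values, would have missed the read sum at their wt/wt level. Hosts were not chosen by that sum, so these pairs are a description.

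Most hosts of the members with the largest increases did not pass the test. Ap1g1 (host of Snord71) had a log2 fold change of -0.07 (adjusted p = 0.758), Ccar1 (Snord98) 0.21 (adjusted p = 0.334), Wdr43 (Snord92 and Snord53) 0.16 (adjusted p = 0.692), Srcap (Snora30) 0.33 (adjusted p = 0.0533) and Eif5 (Snora28) -0.09 (adjusted p = 0.681). Chd8, host of Snord8, rose from 50.1 ± 3.35 CPM to 77.0 ± 3.94 CPM (log2 fold change 0.62, adjusted p = 0.00421). Ncl, host of Snora75, fell from 96.7 ± 4.195 CPM to 59.9 ± 7.50 CPM (log2 fold change -0.69, adjusted p = 0.00617). For the RNAs that fell, neither host passed the test: Snhg10 (Scarna13) had -0.33 (adjusted p = 0.585) and Atg16l1 (Scarna6) 0.34 (adjusted p = 0.0548). Over 49 members with a tested host, 17 had the sign of their host and 44 had the higher value of the pair, with a median difference of 1.40 on the log2 scale. Most of the 12 members that would have missed the read sum at their wt/wt level are among these pairs. Hosts were not chosen by that sum, so members and hosts are not read against each other. Pearson's r between the members and their hosts was 0.19 and Spearman's rho 0.29 across these 49, of which some share 1 of the 42 hosts and all share libraries.

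**Figure D5:**
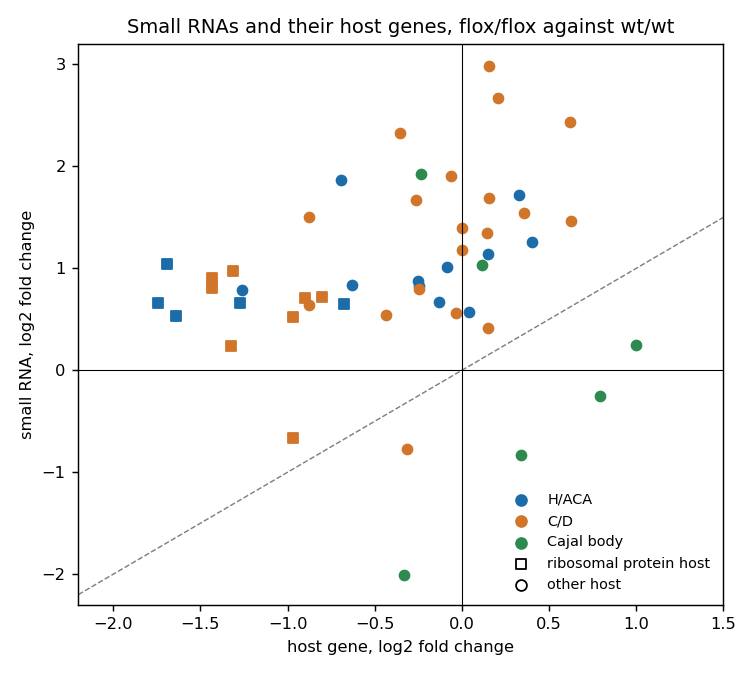
Log2 fold change of 49 members (vertical axis) against that of their host genes (horizontal axis) in flox/flox against wt/wt, with colours for classes, squares for ribosomal protein hosts and a dashed line where both are equal. In 44 pairs the member lies above the line, and ribosomal protein hosts lie on the left. Members were chosen by a read sum and hosts were not.

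Genes that build, process and house these RNAs were read from fixed lists. Their counts stand beside 15.1% of all genes that rose and 14.7% that fell in flox/flox against wt/wt. Of 10 tested core proteins of the H/ACA and C/D particles, 0 rose and 6 fell in flox/flox against wt/wt (median -0.79). Fbl, the methyltransferase of C/D particles, went from 15.4 ± 0.947 CPM to 6.93 ± 0.777 CPM (SD, n = 3 each; log2 fold change -1.15, adjusted p = 0.00147). Nhp2 and Nop10, core proteins of H/ACA particles, fell by 1.38 and 1.13 on the log2 scale (adjusted p = 0.00411 and 0.00418). Dkc1, the pseudouridine synthase, fell by 0.42 (adjusted p = 0.0371). Nop56 and Nop58, which join Fbl in C/D particles, had values of 0.29 and -0.26 (adjusted p = 0.497 and 0.458).

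Of 18 factors of particle assembly, transport and Cajal bodies, 1 rose and 9 fell (median -0.48). Tgs1, which trimethylates caps, rose by 0.46 on the log2 scale (adjusted p = 0.0243), Npm1 fell by 0.96 (adjusted p = 0.00498) and the transport adaptor Phax fell by 0.80 (adjusted p = 0.00645). Coil, the marker protein of Cajal bodies, had -0.12 (adjusted p = 0.566). Of 16 genes of end processing and decay, 3 rose and 3 fell (median -0.04), beside 15.1% and 14.7% of all genes. The exonuclease gene Xrn1 rose from 32.4 ± 1.05 to 56.1 ± 4.91 CPM (adjusted p = 0.00245), with Zfc3h1 (adjusted p = 0.00489) and the poly(A) polymerase Tent4b (adjusted p = 0.0289), and the exosome subunits Exosc3 and Exosc4 fell (adjusted p = 0.00243 and 0.00717), as did the exosome cofactor C1d (adjusted p = 0.0185).

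Of 19 noncoding host genes, 3 rose, namely Snhg17 (adjusted p = 0.00364), Snhg16 (0.0213) and Snhg14 (0.0287), and Snhg8 fell (0.00445), with a median of 0.19. These counts, too, stand beside 15.1% of all genes that rose and 14.7% that fell. Gas5, a host of many C/D RNAs, had 0.19 (adjusted p = 0.628). Of 8 small structured RNAs whose symbols the member rule does not match, Rnu73b rose (adjusted p = 0.0231) and both Rpph1 and Rmrp fell (median -1.10). A rule on symbols can leave out small nucleolar RNAs with other names, so this list is not a set outside the family. Rpph1, the RNA of ribonuclease P, went from 2275 ± 422 to 383 ± 106 CPM (log2 fold change -2.57, adjusted p = 0.00124), and Rmrp, the RNA of ribonuclease MRP, from 780 ± 173 to 332 ± 38.6 CPM (log2 fold change -1.23, adjusted p = 0.00385). In flox/flox against wt/flox, 0 genes of any of these 5 lists passed.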

How the data were processed

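Bulk RNA-seq of liver cells was analysed in 8 libraries. The authors deposited 1 table of raw read counts per library, with sense and antisense reads per gene symbol. Reads were placed on GRCm38 (mm10), per the submitters' processing notes, which also name DESeq2; not given in the sources used here are the aligner, the counter, the gene annotation and any size selection. The 5 rows that name no gene were left out of library sizes (outside genes, 22.19% to 40.01% of sense reads; multiply aligned, 3.923% to 10.91%; ambiguous, 0.3171% to 0.6681%).

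Sense counts of all genes were fitted with edgeR 4.0.16 (R 4.3.3): TMM factors (0.855 to 1.19), filterByExpr, quasi-likelihood F test, two-sided, all 8 libraries in 1 fit with genotype as the only term, and Benjamini-Hochberg adjustment over 14728 genes at 0.05. Hosts, lengths and sequences came from GENCODE M21 by symbol (24366 genes matched); a host is a gene of over 500 exon bases that spans the member on the same strand. Alternatives covered size factors, filters, DESeq2 1.42.0, limma 3.58.1 (voom), sex terms, replicate block, sense plus antisense counts and left-out libraries. The fit was tested on simulated data. Each p-value sets a group difference against the spread between these libraries, estimated over all groups together.

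The members, gene lists and tests were chosen with earlier results of these data known. Named members were fixed as the well-known RNAs Snord118, Snord13, Snord17, the Snord14 family, Scarna2, Scarna10, Scarna13 and the Rpl13a group, per class the 5 highest per kilobase, the 5 of smallest adjusted p in each direction and comparison (with no call, the 2 of smallest p), and the smallest change at 10 CPM or more. Snora74a, Snord2, Snord15a, Snord15b, Snord70, Snord91a, Snord95, Snord111 and Scarna3a were added after their values were seen. Snora21 and Snora7a were also outside this rule and are given beside their hosts. Groupings by length, level and host, and the other short genes inside or outside longer genes, were set after the data were seen. Snora73a and Snora73b were not analysed here.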

Additional observations from a re-analysis of the deposited data

Results flagged for a closer look

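Antisense reads enter the comparisons above only in the alternative that adds them to the sense reads. Of 10 members with at least 80 antisense reads, 2 had every floxed library above every wt/wt library and 3 had every floxed library below. The 3 were Scarna13 (wt/wt at least 0.507 CPM, floxed at most 0.269), Scarna10 (0.256 and 0.244) and Snord104 (0.173 and 0.161). At Snora20 there were 3198 antisense and 246 sense reads over the 8 libraries, so that 92.9% were antisense. Its antisense level was 2.65, 2.59 and 2.46 CPM in wt/wt, 4.66 and 5.28 CPM in wt/flox and 4.12, 5.17 and 4.86 CPM in flox/flox, and the lowest floxed library (4.12 CPM) was above the highest of wt/wt. At Snord4a there were 690 antisense and 97 sense reads (87.7% antisense). Its antisense level was 0.670, 0.533 and 0.456 CPM in wt/wt, 0.936 and 1.02 CPM in wt/flox and 0.766, 1.14 and 1.23 CPM in flox/flox, with the lowest floxed library at 0.766 CPM. The annotation places Tlcd1 on the opposite strand of Snord4a and no gene opposite Snora20. These differences were not tested, and they coincide with the table mark.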

How the results depend on the processing

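In flox/flox against wt/wt the direction of the member median held under each alternative except a filter of mean CPM 1 or more, which kept 8 members (2 rose, median -0.50). Library size alone gave 6 that fell and a median of 0.48. DESeq2 and labelled sex as a term each gave 4 that fell. Sex by transcripts as a term gave 16 that rose, 2 that fell and a median of 0.85. Without the 2 libraries of contradicted sex, which left 1 flox/flox library, the median was 0.57. Leaving out 1 library at a time gave 8 to 14 that rose, 1 to 3 that fell and medians of 0.68 to 0.90. Scarna13, Snora28, Snora30 and Snord8 stayed past the threshold in every alternative that tested them, with adjusted p up to 0.0269, 0.04, 0.0295 and 0.0321. Snord71, Snord85, Snord92 and Snord98 were lost only without the libraries of contradicted sex, where 1 flox/flox library was left.

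In wt/flox against wt/wt, library size alone gave 5 that fell and a median of 0.23; the filter of mean CPM 1 or more gave 1 that rose and a median of -0.63; DESeq2 gave 4 that fell; limma-voom, labelled sex as a term and leaving out the libraries of contradicted sex each gave 1 that fell. Leaving out 1 library at a time gave 0 to 9 that rose, 0 to 2 that fell and medians of 0.57 to 0.69; with 1 wt/flox library left, that library is assumed to vary like the other groups. In flox/flox against wt/flox every alternative gave 0 that rose and 0 that fell, and leaving out 1 library gave medians of 0.09 to 0.24. Apart from fewer members tested or fewer libraries, the cause of each shift was not tested.

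The replicate number as a block gave 16 that rose and 2 that fell with a median of 0.78 in flox/flox against wt/wt, 5 and 1 in wt/flox against wt/wt, and 0 and 0 in flox/flox against wt/flox. Same-numbered libraries of wt/wt and flox/flox correlated at 0.291, 0.0185 and 0.451 in their deviations from group means. Differently numbered libraries of these groups correlated at -0.184, -0.215, 0.344, -0.482, -0.414 and 0.112. Same-numbered libraries of wt/wt and wt/flox gave 0.0117 and 0.0424, and those of wt/flox and flox/flox 0.121 and 0.0563. With 2 wt/flox libraries, their deviations mirror each other, so pairs with that group cannot decide. The numbers follow age and were not taken to pair the samples, which these values do not settle.

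Depth limits most members: 52 of 60 had a mean under 1 CPM.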
